A study of Mus musculus with 7 samples.

Results

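The contractile genes of vascular smooth muscle were followed in RNA sequencing libraries of neurons isolated from mouse brain. The 10 genes, of 46333 in the count files, were taken by symbol: Acta2, Tagln, Myh11, Cnn1, Myl9, Des, Tpm2, Lmod1, Mylk and Pln. The rule used no measured value, and all 10 passed the filter on low counts. The comparison sets il4ra fl/fl.Syn cre+ mice (cre+, 3 libraries) against il4ra fl/fl.Syn cre- mice (cre-, 4 libraries). Every animal carried the floxed il4ra alleles, and the cre+ animals also carried a Cre recombinase under the neuronal promoter of synapsin 1. Adult female littermates were used, per the study's methods. Neurons were enriched from whole brain by magnetic removal of other cells, with antibodies to microglia, oligodendrocytes and astrocytes. Cells of the vessel wall were not among the named targets. The study then assessed purity by flow cytometry, with an antibody to endothelial cells among those used, and reports highly enriched neurons.

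Smooth muscle cells wrap the arteries and arterioles of the brain and set their diameter. Calcium bound to calmodulin switches on myosin light chain kinase, which phosphorylates the regulatory light chain so that smooth muscle myosin pulls on actin filaments. Serum response factor and its partner myocardin drive many of these genes through a DNA element called the CArG box. Capillary pericytes, the neighbouring mural cells, carry much less of this machinery in the mouse brain and are marked by other genes.

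None of the 10 genes was called different between the genotypes when all 7 libraries were used. Of them, 9 had counts in every library, and 8 of these 9 had a higher mean in the cre+ libraries, by up to 1.47-fold. Of all 21542 genes tested, 9918 had a log2 fold change above 0. At the adjusted threshold of 0.05, edgeR called 0 of the 10, and also 0 of all genes tested. DESeq2 called 0 of the 10, against 12.2% of genes with an adjusted p. The genotypes were apart, with no overlap, for 0 of the 10, against 18.7% of genes tested. The widest gap against the spread was that of Des, at 1.39-fold. One cre- library, replicate 1, held as much contractile RNA as the cre+ libraries. It was then left out. Leaving out each library was planned for edgeR, and was added for DESeq2 after the data had been seen. Without it, edgeR called 0 of the 9 genes left in its fit, and 0 of all 21078 tested. DESeq2 called 4 of the 10 higher in cre+, against 5.84% of all genes with an adjusted p. That library was picked because it was high in these genes, which favours such calls for them, so these calls support nothing on their own.

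Library totals were between 75707411 and 94376841 counts in the cre+ libraries and between 68213223 and 89951002 in the cre- libraries. Il4ra, the floxed gene, was at 29.5, 28.7 and 24.4 CPM (counts scaled to the library total after adjustment by its TMM factor) in the cre+ libraries, against 20.03, 23.2, 29.6 and 22.4 CPM in the cre- libraries (log2 fold change 0.21 ± 0.15, adjusted p = 0.487, edgeR). A count over the whole gene cannot check a deletion of a few exons in a part of the cells. Libraries also stood apart in their cell type markers. The mean log2 CPM of 13 neuron markers, set against their cre- mean, was -1.52, -0.55 and -0.34 in the cre+ libraries and 0.43, -0.01, 0.01 and -0.43 in the cre- libraries, so cre- replicate 1 was highest and cre+ replicate 1 lowest. The mean of 8 microglia markers was 0.57, 1.27 and 0.94 in the cre+ libraries and -1.41, 0.37, 1.86 and -0.82 in the cre- libraries. In bulk RNA, fewer cells of a type and less RNA per cell cannot be told apart.

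The CArG box was looked for in the 250 bases before each start site, since the element links several of these genes to a shared regulator. RefSeq promoters (GRCm38.p6) were at hand for 8 of the 10 genes. A match at most 1 letter off the 10-letter consensus occurred in 3 of the 8, Acta2, Myl9 and Lmod1, each with 2 such matches, against 18.6% of 32851 promoters with at least 1 and 2.96% with at least 2. Only Myl9 had an exact match, which 1.47% of all promoters had. The strand of the gene was read, which covers both strands because the consensus is its own reverse complement. The matches are given 5′ to 3′ on the strand of the gene, with the 10 matching letters in capitals and the flanks in lower case. A match is a description of these letters, not evidence that the site is bound.
Acta2, chr19:34255433-34255472, minus strand, match 84 to 75 bases before the start: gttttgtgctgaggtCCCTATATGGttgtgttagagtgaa
Acta2, chr19:34255383-34255422, minus strand, match 34 to 25 bases before the start: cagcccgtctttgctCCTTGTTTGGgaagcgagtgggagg
Myl9, chr2:156775288-156775327, plus strand, exact match 161 to 152 bases before the start: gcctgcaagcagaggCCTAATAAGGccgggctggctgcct
Myl9, chr2:156775350-156775389, plus strand, match 99 to 90 bases before the start: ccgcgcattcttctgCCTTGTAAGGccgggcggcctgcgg
Lmod1, chr1:135324609-135324648, plus strand, match 189 to 180 bases before the start: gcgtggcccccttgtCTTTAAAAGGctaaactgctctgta
Lmod1, chr1:135324634-135324673, plus strand, match 164 to 155 bases before the start: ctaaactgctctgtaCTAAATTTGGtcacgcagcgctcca

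Actin and myosin form the motor. Acta2 (chr19:34218490-34232990, minus strand, GRCm39 as in the files) encodes smooth muscle alpha-actin, the main actin of the vessel wall. Expression was 136.0, 84.2 and 120.7 CPM in the cre+ libraries, against 136.9, 74.6, 65.1 and 96.7 CPM in the cre- libraries. The highest library was cre- replicate 1, and the genotypes overlapped across most of their ranges. Acta2 averaged 113.6 ± 26.6 CPM in cre+ (SD, n = 3) and 93.3 ± 31.9 CPM in cre- (SD, n = 4), with a log2 fold change of 0.28 ± 0.26 (95% interval -0.32 to 0.89, adjusted p = 0.601, edgeR).

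Myh11 (chr16:14012399-14109236, minus strand) encodes the smooth muscle myosin heavy chain, a protein largely restricted to mature smooth muscle. It was at 131.1, 90.4 and 136.7 CPM in the cre+ libraries, against 138.3, 80.4, 69.0 and 99.0 CPM in the cre- libraries. The order of the libraries was close to that of Acta2, with cre- replicate 1 on top and cre- replicate 3 at the bottom. The log2 fold change was 0.30 ± 0.24 (95% interval -0.25 to 0.86, adjusted p = 0.530, edgeR). Across the 7 libraries Acta2 and Myh11 correlated with r = 0.99, and with r = 0.98 after the genotype means were removed. Of the 50-base windows in the reference transcripts, 7 of 2739 for Acta2 were shared with Actg1 and 26 of 6500 for Myh11 with Myh9, so little of either count could come from those cytoplasmic relatives by shared sequence.

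Myl9 and Mylk act on the myosin light chain. Myl9 (chr2:156617340-156623578, plus strand) encodes the regulatory light chain that is phosphorylated during contraction. It was at 66.7, 48.2 and 69.5 CPM in the cre+ libraries, against 64.8, 36.8, 36.4 and 45.0 CPM in the cre- libraries. Every cre+ library lay above cre- replicates 2 to 4, and cre- replicate 1 lay inside the cre+ range. The log2 fold change was 0.43 ± 0.22 (95% interval -0.08 to 0.93, adjusted p = 0.321, edgeR).

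Mylk (chr16:34565580-34822790, plus strand) encodes myosin light chain kinase. Its locus also gives a long kinase used in endothelium and the short protein telokin, which a count over the gene does not separate. Mylk was at 90.4, 72.7 and 81.4 CPM in the cre+ libraries, against 83.3, 57.3, 45.6 and 60.2 CPM in the cre- libraries. As for Myl9, only cre- replicate 1 reached into the cre+ range. The log2 fold change was 0.40 ± 0.19 (95% interval -0.02 to 0.83, adjusted p = 0.273, edgeR).

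**Figure D1:**
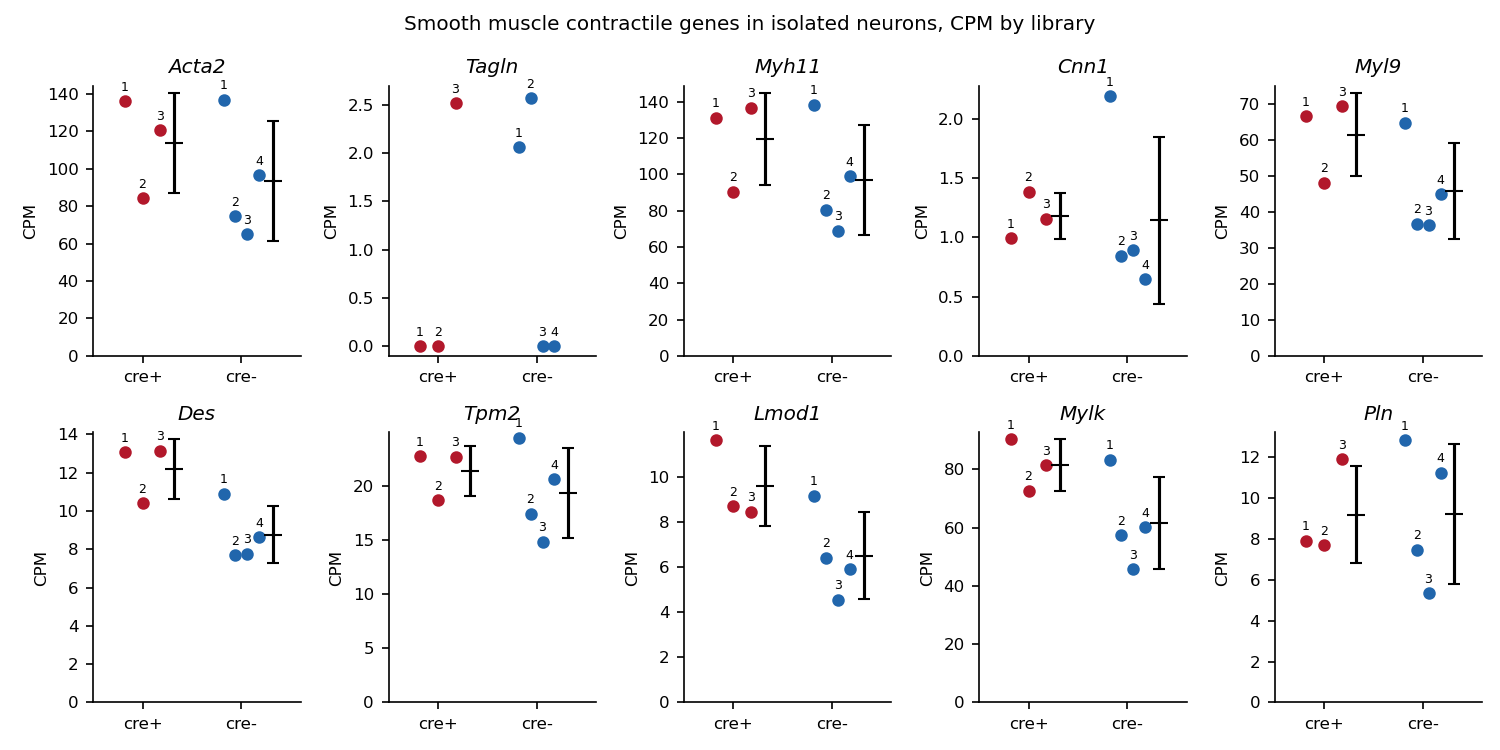
Level of each of the 10 contractile genes in CPM (vertical axis, linear, starting at 0 apart from a small margin below 0 for Tagln), with cre+ libraries in red on the left and cre- libraries in blue on the right. Each point is 1 library with its replicate number, and black bars give the mean and SD (not drawn for Tagln). Cre- replicate 1 is the highest cre- library for all 9 genes with counts in every library, and reaches 136.9 CPM for Acta2.

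Thin filament proteins gave smaller values. Tpm2 (chr4:43514711-43523765, minus strand) encodes beta-tropomyosin, which lies along actin, and was at 22.8, 18.7 and 22.7 CPM in the cre+ libraries, against 24.4, 17.4, 14.9 and 20.6 CPM in the cre- libraries. The genotypes overlapped, and the log2 fold change was 0.14 ± 0.18 (95% interval -0.27 to 0.56, adjusted p = 0.717, edgeR). Lmod1 (chr1:135252545-135295803, plus strand) encodes leiomodin 1, which nucleates actin filaments in smooth muscle. Its levels were 11.6, 8.69 and 8.45 CPM in the cre+ libraries, against 9.16, 6.41, 4.56 and 5.91 CPM in the cre- libraries. Cre- replicate 1 again lay within the cre+ range and the other cre- libraries below it. The log2 fold change was 0.56 ± 0.26, the highest of the 10 (95% interval -0.04 to 1.15, adjusted p = 0.277, edgeR).

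Cnn1 (chr9:22010512-22020926, plus strand) encodes calponin 1, an actin-binding protein of differentiated smooth muscle, and was the lowest of the 9 genes. It had 88, 102 and 86 counts in the cre+ libraries, against 193, 71, 64 and 52 counts in the cre- libraries. In CPM these were 0.995, 1.38 and 1.16 in cre+, against 2.19, 0.844, 0.890 and 0.647 in cre-, with cre- replicate 1 above every other library. The log2 fold change was 0.04 ± 0.49 (95% interval -1.07 to 1.16, adjusted p = 0.975, edgeR), and it was 0.57 without cre- replicate 1. The gene overlaps Elof1 on the opposite strand over 961 bases, and no source used here says whether counting used strand. Among the contractile genes, only Myh11 and Tpm2 overlap no other gene in the GENCODE annotation. Myl9, for example, overlaps 5730471H19Rik on the opposite strand over 6496 bases.

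Tagln (chr9:45840917-45847356, minus strand) encodes transgelin, an actin-binding protein that is usually abundant in smooth muscle. It was listed at 0, 0 and 187 counts in the cre+ libraries and at 182, 216, 0 and 0 counts in the cre- libraries. Acta2 had 4680 to 12073 counts in the same libraries, so Tagln at 0 in 4 of 7 libraries did not follow Acta2. An exact 0 can be a failed estimate for a gene with an overlapping neighbour, and the last part of Tagln overlaps Pcsk7 on the opposite strand over 123 bases. Tagln also overlaps Gm48529 on the opposite strand, over 5995 bases, and no counts were listed under that name. Whether the counting step set these values to 0 was not tested, and no fold change is given for Tagln.

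Des (chr1:75336973-75345223, plus strand) encodes desmin, the intermediate filament protein of muscle, which brain pericytes also make. It was at 13.1, 10.4 and 13.2 CPM in the cre+ libraries, against 10.9, 7.70, 7.77 and 8.64 CPM in the cre- libraries. A single cre- library, replicate 1, lay above the lowest cre+ library. Des averaged 12.2 ± 1.56 CPM in cre+ (SD, n = 3) and 8.76 ± 1.50 CPM in cre- (SD, n = 4). Des had the smallest p of the 10, with a log2 fold change of 0.48 ± 0.19 (95% interval 0.05 to 0.91, unadjusted p = 0.0323, adjusted p = 0.207 in edgeR and 0.0899 in DESeq2). The exact two-sided permutation test over all 35 assignments gave p = 0.0857 for Des, where the smallest possible p is 0.0286.

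Pln (chr10:53213763-53222083, plus strand) encodes phospholamban, which restrains the calcium pump of the sarcoplasmic reticulum. It was at 7.91, 7.70 and 11.9 CPM in the cre+ libraries, against 12.8, 7.46, 5.35 and 11.2 CPM in the cre- libraries. Pln averaged 9.18 ± 2.37 CPM in cre+ (SD, n = 3) and 9.22 ± 3.43 CPM in cre- (SD, n = 4), and the log2 fold change of -0.01 ± 0.32 had a 95% interval of -0.74 to 0.72 (adjusted p = 0.994, edgeR). Pln lies within the locus of Cep85l on the opposite strand, so reads from that gene cannot be told apart from Pln without strand.

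Across the list, edgeR called 0 of 10 genes, against 0% of the 21542 genes tested, and limma-voom also called 0. At an unadjusted p below 0.05, edgeR gave 1 of 10 higher in cre+ (Des), against 10.2% of all genes tested. DESeq2 called 0 of 10, where it called 12.2% of genes with an adjusted p. The genotypes were apart in CPM for 0 of 10, against 18.7% of genes tested. The median log2 fold change of the 10 was 0.29, and -0.04 over all genes tested. The exact permutation p of the 9 genes with counts in every library was between 0.0857 and 1.

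**Figure D2:**
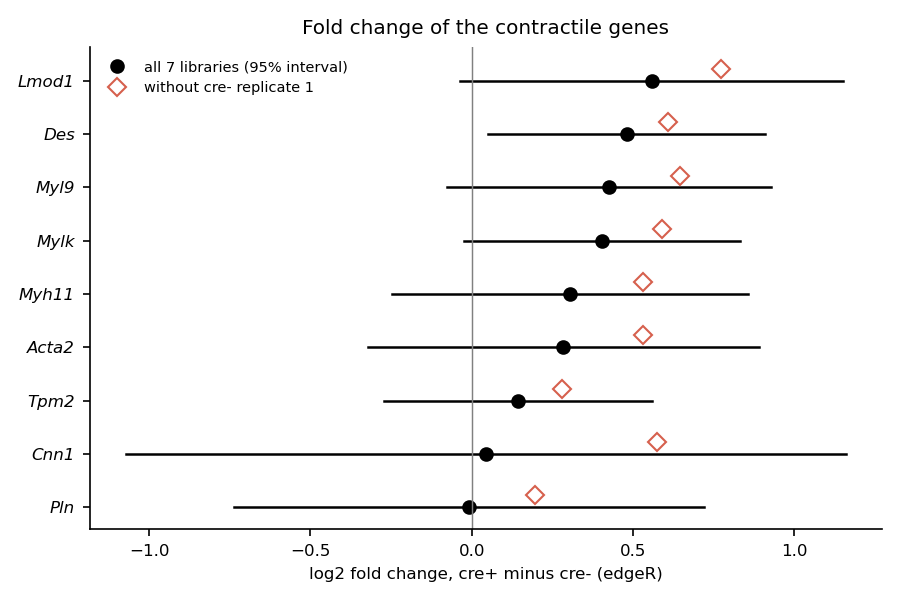
Log2 fold change, cre+ minus cre-, of the 9 contractile genes with counts in every library (horizontal axis), from edgeR. Filled points and lines give the value and 95% interval with all 7 libraries, and open diamonds the value without cre- replicate 1. Only the interval of Des (0.05 to 0.91) lies above 0. All 9 diamonds lie to the right of the filled points, which follows from cre- replicate 1 being the highest cre- library for each gene.

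The 9 genes with counts in every library moved together from library to library. Over the 36 pairs of genes, the correlation within genotypes had a median of 0.84, and 14 pairs were over 0.9. The lowest, 0.37, belonged to Cnn1 and Pln. Cre- replicate 1 was the highest cre- library for 9 of 9 genes and the highest of all 7 libraries for 5. Cre- replicate 3 was the lowest of all for 7 genes, and cre+ replicate 2 the lowest cre+ library for 7. These correlations rest on 7 libraries that share their depth and cell mixture with every gene. Set against its cre- mean, the average log2 CPM over the 9 genes was 0.42, 0.13 and 0.44 in the cre+ libraries and 0.56, -0.18, -0.38 and 0.00 in the cre- libraries. The 9 genes summed to 480.6, 342.4 and 465.7 CPM in the cre+ libraries, against 482.9, 289.0, 249.6 and 348.0 CPM in the cre- libraries.

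**Figure D3:**
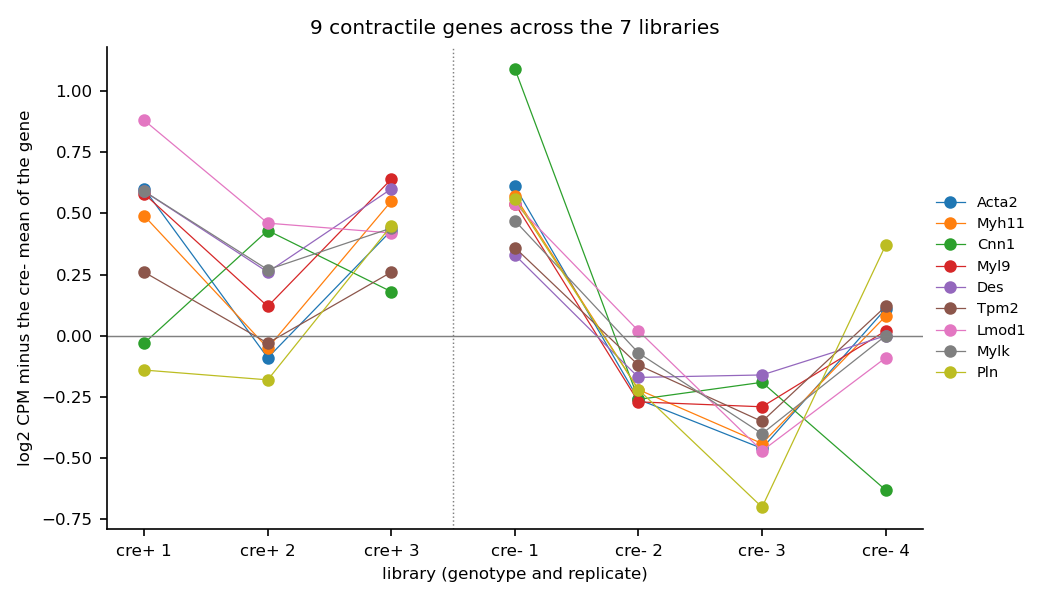
Log2 CPM of 9 contractile genes minus the cre- mean of each gene (vertical axis) in the 7 libraries, with the 3 cre+ libraries left of the dotted line and the 4 cre- libraries right of it. Thin lines join the values of 1 gene and imply no order of the animals. Most genes are high in cre- replicate 1 and low in cre- replicate 3, where the mean over the 9 genes was 0.56 and -0.38.

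The DESeq2 count, but not the edgeR count, changed without cre- replicate 1. In its absence, every cre+ library lay above every remaining cre- library for 5 of the 10 genes, Cnn1, Myl9, Des, Lmod1 and Mylk, against 12.9% of the genes tested. The library was picked because it was high in these genes, which favours such a separation for them and not for genes at large, so this count and the calls below support nothing on their own. DESeq2 then called 4 of the 10 higher in cre+, beside the 5.84% of all genes. These were Mylk (log2 fold change 0.59 ± 0.17, adjusted p = 0.0144), Myl9 (0.65 ± 0.20, adjusted p = 0.0194), Des (0.61 ± 0.19, adjusted p = 0.0239) and Lmod1 (0.78 ± 0.26, adjusted p = 0.0319). EdgeR called 0 of the 9 genes left in its fit without that library (Tagln dropped out), with adjusted p-values of 0.154 or more. It also called 0 of all 21078 genes tested, and 0.154 was the lowest adjusted p of any gene. The median log2 fold change of the 9 genes with counts in every library was 0.57 in edgeR, against 0.30 with all libraries. Leaving out any of the other 6 libraries gave 0 calls with DESeq2. In edgeR the median of the same 9 genes was 0.47 when cre+ replicate 2 was left out and 0.17 when cre- replicate 3 was. Leaving out a library in DESeq2 was chosen after the data had been seen, and no label sets cre- replicate 1 apart from the other cre- animals.

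Set on a per-length scale, as CPM per kilobase of exon in the GENCODE annotation of GRCm39, the levels ordered the genes from Acta2 down to Cnn1. Acta2 stood at 35.2 in cre+ and 28.9 in cre-, Myl9 at 26.8 and 20.0, and Myh11 at 15.7 and 12.7. Mylk and Tpm2 followed with 7.24 and 5.04 in cre+, against 5.47 and 4.57 in cre-. Des, Lmod1 and Pln were at 2.37, 2.34 and 1.49 in cre+, against 1.70, 1.59 and 1.50 in cre-. Cnn1 had 0.431 in cre+ and 0.418 in cre-. Of neighbours in this order, Des and Lmod1 lay within 1 SD of each other in both genotypes. The same held in cre- for Acta2 and Myl9, for Mylk and Tpm2, and for Lmod1 and Pln. With the longest transcript as the length, the order stayed the same, but Des moved to 3.90 in cre+ and 2.79 in cre-, more than 1 SD above Lmod1 at 2.34 in cre+ and 1.59 in cre-.

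Genes that work with the contractile proteins were measured as further lists. Of 16 tested filament and anchorage partners, DESeq2 called 7 higher and 0 lower in cre+, and edgeR called 0. Of all genes with an adjusted p in DESeq2, 6.7% were called higher and 5.48% lower, which is the background of this and the following list counts. The 7 were Csrp1, Vim, Vcl, Csrp2, Smtn, Cald1 and Synm. Smtn, which encodes smoothelin, was at 215.1, 153.1 and 195.6 CPM in the cre+ libraries, against 101.3, 121.6, 134.9 and 150.5 CPM in the cre- libraries. Its cre- replicate 1 was the lowest library, unlike for Acta2 and Myh11, and the genotypes were apart (log2 fold change 0.56 ± 0.16, adjusted p = 0.0261 in DESeq2 and 0.122 in edgeR). Several of these partners, such as Vim and Vcl, are also made by endothelial cells and fibroblasts.

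Of 20 genes that control myosin phosphorylation, DESeq2 called 5 higher and 0 lower. These were Arhgef12, Rhoa, Myl12a, Mrvi1 (also known as Irag1) and Rock1. Arhgef12 had a log2 fold change of 0.45 ± 0.10 (adjusted p = 0.00179 in DESeq2 and 0.0948 in edgeR). Most genes of this list act in many cell types. Of 17 genes of calcium handling and potassium channels, DESeq2 called Kcnmb1 higher and Ryr3 and Kcnma1 lower. Kcnmb1 encodes the smooth muscle subunit of the large-conductance potassium channel. It was at 3.57, 5.40 and 6.85 CPM in the cre+ libraries, against 3.02, 1.94, 2.73 and 1.54 CPM in the cre- libraries, with every cre+ library above every cre- library (log2 fold change 1.19 ± 0.33, adjusted p = 0.0120 in DESeq2 and 0.117 in edgeR). Kcnma1 and Ryr3, the channel's pore and a calcium release channel, are also neuronal genes. DESeq2 called 4 of 13 neuron markers lower in the cre+ libraries, and their part in the values of Kcnma1 and Ryr3 was not tested.

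Of 16 tested vasoactive receptors and genes of cyclic GMP signaling, DESeq2 called 0 higher and 1 lower. This was Adra1d, an alpha-1 adrenergic receptor that neurons also make, at 0.938, 1.29 and 1.35 CPM in the cre+ libraries, against 6.58, 3.64, 5.31 and 2.48 CPM in the cre- libraries (log2 fold change -1.92 ± 0.39, adjusted p = 0.000192 in DESeq2 and 0.0939 in edgeR). Of 13 regulators of contractile gene transcription, 3 were called higher, Klf4, Notch3 and Tgfbr2. Srf, which encodes serum response factor, had a log2 fold change of 0.04 ± 0.12 (adjusted p = 0.884, edgeR), and Myocd, which encodes myocardin, was at 1.44 to 3.24 CPM in cre+ and 0.416 to 1.97 CPM in cre- (log2 fold change 0.72 ± 0.53, adjusted p = 0.498, edgeR). Klf4, a factor that opposes the contractile program and is also made by endothelium, was at 340.8, 255.6 and 428.7 CPM in the cre+ libraries, against 121.9, 134.1, 185.6 and 207.6 CPM in the cre- libraries. Of 18 tested family relatives of the contractile genes, 5 were called higher, Tpm4, Myl12a, Myh9, Tagln2 and Cnn3, most of them used widely outside muscle.

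Marker lists of other cell types, of the vessel and not, also held genes that DESeq2 called higher in cre+. It called 10 of 13 pericyte markers higher and 0 lower, with a median log2 fold change of 0.90. Rgs5, a pericyte marker that smooth muscle also makes, was at 255.5, 215.1 and 267.1 CPM in the cre+ libraries, against 134.3, 147.5, 110.9 and 129.9 CPM in the cre- libraries. Its genotypes were apart, and cre- replicate 1 was not the highest cre- library (log2 fold change 0.91 ± 0.13, adjusted p = 5.69e-07 in DESeq2 and 0.0939 in edgeR). The mean of the pericyte list stood, against its cre- mean, at 1.08, 0.73 and 1.26 in the cre+ libraries and 0.03, 0.14, 0.03 and -0.21 in the cre- libraries. DESeq2 also called 11 of 15 endothelial markers higher, with a list mean of 0.97, 0.34 and 0.42 in cre+ and -0.14, -0.13, -0.06 and 0.32 in cre-. Of 11 arterial endothelial markers 5 were called higher, and of 12 meningeal fibroblast markers 4. Outside the vessel, 3 of 8 astrocyte markers (median log2 fold change 0.86) and 2 of 8 oligodendrocyte markers (median 0.64) were called higher, and 0 of 8 microglia markers (median 0.41). Without cre- replicate 1, DESeq2 called 5.84% of all genes with an adjusted p higher. It then called 9 of the 13 pericyte, 5 of the 15 endothelial and 3 of the 11 arterial endothelial markers higher. Filament partners gave 4 higher, family relatives 3, myosin phosphorylation genes 5 and regulators of contractile gene transcription 4. Calcium handling and vasoactive genes gave 1 each, fibroblast markers 3, astrocyte and oligodendrocyte markers 2 each, and microglia and neuron markers 0. Called lower in that fit were 1 calcium handling gene and 1 vasoactive gene. Of the 13 neuron markers 0 were called lower, against 4 with all libraries. The part of these shifts in the values of the contractile genes was not tested.

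**Figure D4:**
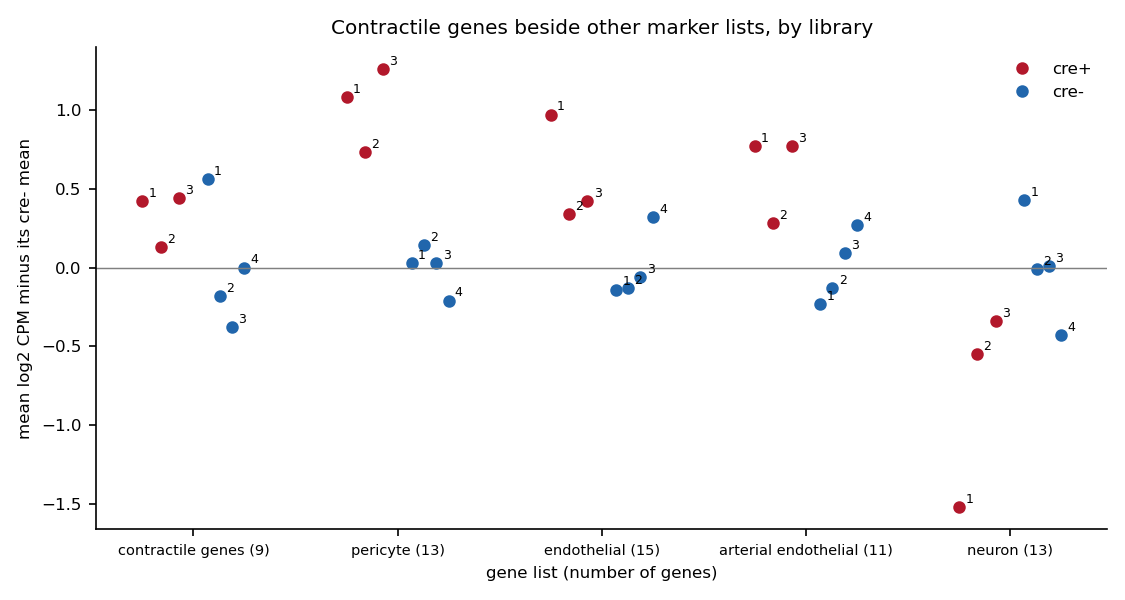
Mean log2 CPM of 5 gene lists minus the cre- mean of the list (vertical axis), with cre+ libraries in red left of cre- libraries in blue and the replicate number beside each point. The mean of the contractile genes overlaps between genotypes only through cre- replicate 1, at 0.56. As single genes, Acta2, Myh11, Tpm2 and Pln also overlap without that library. The pericyte points of the genotypes are apart (0.73 to 1.26 in cre+, -0.21 to 0.14 in cre-).

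Whether Acta2 and Myh11 differed from other vessel genes in their change was tested as a ratio within each library. The other contractile genes were not tested in this way. For Myh11 over Rgs5 the log2 ratio was -0.96, -1.25 and -0.97 in the cre+ libraries, against 0.04, -0.88, -0.68 and -0.39 in the cre- libraries. All cre+ ratios lay below all cre- ratios, with a difference of -0.58 (exact permutation p = 0.0571, adjusted p = 0.314 over 6 ratios). For Acta2 over Rgs5 the difference was -0.60 (exact permutation p = 0.114, adjusted p = 0.314), and the cre+ and cre- ranges overlapped. Ratios of Acta2 and Myh11 to Pdgfrb, the pericyte receptor for platelet-derived growth factor, and to Pecam1, an endothelial adhesion protein, differed by -0.39 to -0.35, with an adjusted exact permutation p of 0.314 each. None of the 6 passed the threshold. The smallest possible exact permutation p is 0.0286, so after adjustment over 6 a single ratio could not have passed on its own. The 6 ratios were chosen after the levels had been seen.

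The genes most like the contractile list across libraries were sought among 15977 genes with a mean of at least 1 CPM. By the Pearson correlation over the 7 libraries with the mean of the standardised list, the 5 nearest were Maip1 (r = 0.992), Slc38a11 (0.971), Pid1 (0.968), Mcam (0.967) and Phf20 (0.960). For Acta2 alone they were Myh11 (0.985), Tsg101 (0.979), Tpm2 (0.974), Mcam (0.970) and Maip1 (0.961). Mcam encodes the adhesion molecule CD146 of vessel cells. With 7 libraries and this many candidates, high correlations are found for many genes, and these values are a description.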

How the data were processed

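RNA from isolated brain neurons of 3 cre+ and 4 cre- littermate mice was sequenced from poly(A) libraries. As the methods and the submitters' processing notes state, the authors used fastp, FastQC, STAR (GRCm39), SAMtools, StringTie and DESeq2. No source used here gives versions, the annotation release or the strand setting. The deposited counts are whole numbers for 46382 rows, and 49 repeats with identical counts were dropped. The authors also deposited a normalized signal, the counts divided by 1 factor per library, which was not tested. The codes in the headers use different letters in cre+ and cre- libraries, and a batch behind them cannot be told apart from genotype.

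Counts were tested with the quasi-likelihood test of edgeR 4.0.16 (TMM factors, filterByExpr, Benjamini-Hochberg over 21542 genes, threshold 0.05), with DESeq2 1.42.0 and limma-voom 3.58.1 as alternatives, in R 4.3.3. CPM use TMM factors, and log2 CPM a prior count of 2. Errors are SE unless marked SD. Single values were tested by exact two-sided permutation over 35 assignments. Other alternatives were other scalings, other filters on low counts, a replicate block and leaving out each library. Tests were checked on simulated counts. The 10 genes and the lists were chosen with earlier results of these data known. Adjusted p-values are over all genes tested, except those of the 6 ratios, which are over the 6. Permutation p-values of single genes are unadjusted. Named genes were the 10, Il4ra, the members of other lists called by DESeq2 or with the smallest p, and the genes most like the 10 across libraries. Srf, Myocd and the ratios were singled out after their values were seen.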

Additional observations from a re-analysis of the deposited data

Results flagged for a closer look

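Cnn1 in the cre- libraries had 1 value far from the others. Its level was 2.19 CPM in cre- replicate 1 and 0.647 to 0.890 CPM in cre- replicates 2 to 4, and the gap took 0.842 of the range of the 4 libraries. For normally distributed values, chance gives such a gap in about 1 in 20 groups, and the gap was computed for each of the 10 genes. These are 193 counts against 52 to 71.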

How the results depend on the processing

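No setting of edgeR, of limma-voom or of DESeq2 with all libraries called any of the 10 genes. Over all genes, edgeR and limma-voom also called 0 in each setting, apart from 3 higher and 2 lower without cre+ replicate 1. DESeq2 without cre- replicate 1, an alternative added after the data had been seen, called 4, and DESeq2 without any other library called 0. The median log2 fold change of the list stayed above 0 under every alternative. Leaving out 1 library each moved it between 0.16 (without cre- replicate 3) and 0.57 (without cre- replicate 1, where Tagln dropped out of the fit). Over the 9 genes other than Tagln these were 0.17 and 0.57, against 0.30 with all libraries. With library totals in place of TMM factors it was 0.18, and the median of all genes was -0.16 in place of -0.04. Of the single genes, Cnn1 and Pln changed direction, and neither passed the threshold in any setting. Cnn1 was at -0.0500 with library totals and -0.00778 with a replicate block, and between -0.15 and 0.57 with 1 library left out. Pln was at 0.0133 in limma-voom and 0.16 with a replicate block, and between -0.24 and 0.20 with 1 library left out. The cause was not tested. Same-numbered libraries correlated at -0.0878, 0.00523 and 0.188 in their deviations from the group means. The other pairs of libraries ran from -0.279 to 0.332. With so few libraries, these values cannot tell whether the numbers pair the animals. The replicate block called 0 of the 10 genes, with a median of 0.35. Depth was least for Tagln, listed at 0 in 4 libraries, and then for Cnn1, with 52 to 193 counts per library.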
